A study of Mus musculus with 12 samples.

Results

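The genes described here are those of the NF-κB family and of its close partners and inhibitors: the subunits Nfkb1, Nfkb2, Rela, Relb and Rel, the nuclear IκB proteins Bcl3 and Nfkbiz, and the inhibitors Nfkbia, Nfkbie and Tnfaip3. They are 10 of 24340 genes in the table, and all 10 were above 0 in every library, and 18509 genes that were above 0 in some library were tested. They were selected on the difference in FPKM between IOP‐treated and control eyes, as a family, in which Bcl3 was among the genes that stood highest. Their differences between those eyes are therefore given as a description from which no support is drawn, and tests are kept for the comparisons with and without ganciclovir (GCV), which the choice did not use. Other genes of the pathway were tested in all comparisons, but their lists too were drawn up with earlier results of these data known, so their counts are not independent evidence.

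Both retinas of each of 6 p16‐3MR mice, aged 12 to 16 weeks, were sequenced. All of the mice carried the transgene, in which the regulatory region of p16 drives a fusion of Renilla luciferase, a red fluorescent protein and a viral thymidine kinase, so that GCV is toxic to cells that express p16. In each mouse, the intraocular pressure (IOP) of 1 eye was held at 85 to 90 mm Hg for 60 minutes by saline infusion, and the other eye, without IOP elevation, was the control. Mice 1, 2 and 5 then received GCV (25 mg/kg, intraperitoneally, for 3 days) and mice 3, 4 and 6 did not, with retinas collected on day 3. The study describes its control mice in general as given PBS or vehicle. This gave 4 groups of 3 libraries: control, IOP, control‐GCV and IOP‐GCV. Values are FPKM, fragments scaled by transcript length and by library size, so that levels of genes of different length can be set side by side. The libraries held an estimated 3980000 to 9050000 fragments, and 1 library, the IOP eye of mouse 6, was the shallowest, with 14844 genes above 0 against 16044 to 16593 in the others.

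NF-κB is a family of transcription factors that work as pairs of subunits. RELA, RELB and REL carry activation domains, whereas NFKB1 and NFKB2 are made as long precursors that are cut to the DNA-binding p50 and p52. In resting cells, IκB proteins such as the products of Nfkbia and Nfkbie hold the pairs in the cytoplasm, until IκB kinases mark them for destruction after signals from cytokine and Toll-like receptors. BCL3 and IκBζ (Nfkbiz) are IκB proteins of the nucleus that bind p50 or p52 and modify transcription there. A20, the product of Tnfaip3, is a ubiquitin-editing enzyme that dampens the signal upstream of the kinases. Many of these genes are themselves known targets of NF-κB, so that their messages are often read as a sign of the pathway, and in the retina the pathway is known from glia, microglia and neurons.

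The promoters are shown because several of these genes stood higher together in IOP‐treated eyes, and because promoters are where the sites of the family can be looked for. RefSeq promoters (250 bases before to 50 bases after a start site, build GRCm38.p6) were at hand for 7 of the 10 genes, with 10 start sites in all. Those of Nfkb1, Relb and Nfkbiz were not used here. The windows below run from 130 bases before to 20 bases after the start site, on the strand of the gene, and capitals mark matches to the 10-base κB consensus, searched on both strands. Bcl3 is at chr7:19808462-19822824 on the minus strand (window chr7:19822736-19822885), Tnfaip3 at chr10:19000910-19015410 on the minus strand (window chr10:19015391-19015540) and Nfkbia at chr12:55489409-55492647 on the minus strand (window chr12:55492628-55492777). Nfkb2 is at chr19:46300994-46312400 on the plus strand (first start site, window chr19:46304607-46304756) and Rela at chr19:5637442-5648134 on the plus strand (window chr19:5637411-5637560).
Bcl3: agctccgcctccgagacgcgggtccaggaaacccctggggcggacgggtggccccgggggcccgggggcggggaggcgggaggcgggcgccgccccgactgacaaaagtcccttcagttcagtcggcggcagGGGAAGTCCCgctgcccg
Tnfaip3: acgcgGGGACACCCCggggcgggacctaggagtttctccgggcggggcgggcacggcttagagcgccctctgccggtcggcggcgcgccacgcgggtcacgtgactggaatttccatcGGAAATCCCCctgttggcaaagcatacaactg
Nfkbia: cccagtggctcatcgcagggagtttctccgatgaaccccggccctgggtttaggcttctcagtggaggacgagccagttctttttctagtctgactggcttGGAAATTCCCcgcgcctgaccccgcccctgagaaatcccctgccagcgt
Nfkb2: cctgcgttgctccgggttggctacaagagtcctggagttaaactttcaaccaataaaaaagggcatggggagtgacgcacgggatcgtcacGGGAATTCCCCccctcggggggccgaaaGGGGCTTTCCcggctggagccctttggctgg
Rela: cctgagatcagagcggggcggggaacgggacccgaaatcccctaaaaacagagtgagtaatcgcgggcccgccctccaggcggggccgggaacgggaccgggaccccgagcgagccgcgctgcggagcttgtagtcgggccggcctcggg

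The Bcl3 match starts at base 3 of the transcript, and that of Nfkbia 29 bases before its start. The Tnfaip3 window holds matches 125 and 12 bases before the start, and the Nfkb2 window holds 2 overlapping matches 39 and 38 bases before the start and another 11 bases before it. The Rela promoter held none. Over all 300 bases, 8 of the 10 promoters, from 6 of the 7 genes, held at least 1 match, with Rel and Nfkbie as the others. The promoters of the 2 later Nfkb2 start sites overlap and share a match, so 1 site counts in 2 of these 8. Of all 32851 RefSeq promoters, 8.46% held a match, as did 22 of 89 promoters (24.7%) of the other pathway genes described further on. The first Nfkb2 start site had 3 matches, which 0.186% of all promoters reached. Of the genes shown, Tnfaip3, with 2 matches, was lower in IOP‐treated eyes, and Rela, with none, was higher. A match is a run of letters in this window and does not show binding.

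In control eyes, Tnfaip3 and Nfkbia were the most abundant members. Over the 6 control eyes, Tnfaip3 had a median of 85.9 FPKM (range 74.6 to 91.1), followed by Nfkbia at 16.2 (13.5 to 17.9) and Rela at 8.61 (8.02 to 9.02), and these 3 ranges did not overlap. Nfkb1 (median 4.54 FPKM) and Nfkbiz (3.89) came next and overlapped each other. Nfkbie (1.36), Relb (0.684), Rel (0.523), Nfkb2 (0.519) and Bcl3 (0.373) followed, each overlapping the next in this order. The mean of Tnfaip3 in control eyes without GCV was above that of 95.9% of all genes tested, and the mean of Bcl3 was above that of 28.5%. In the IOP‐treated eyes without GCV, Bcl3 had a median of 28.2 FPKM, between those of Tnfaip3 (42) and Nfkbia (26.3), and these neighbours overlapped.

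**Figure D1:**
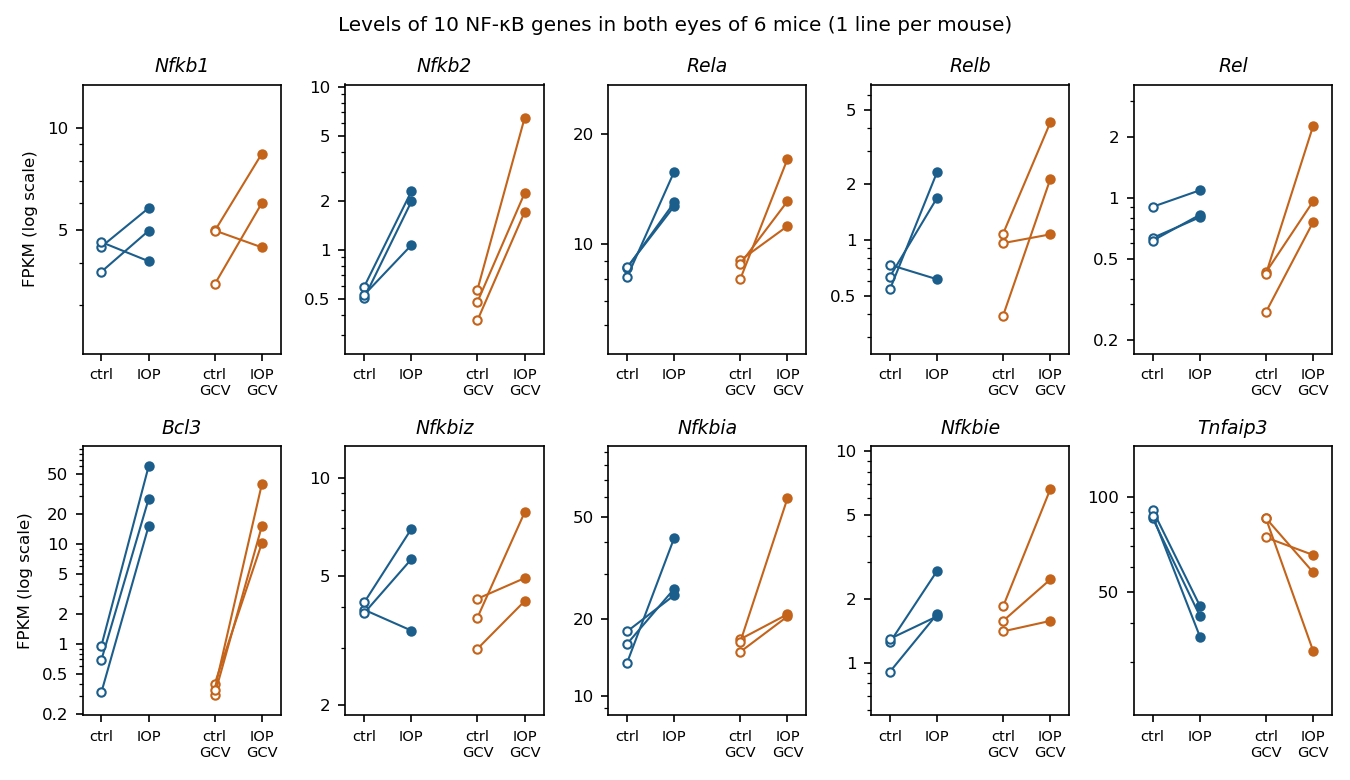
Level of each gene in FPKM (vertical axis, log scale, its own range in each panel) in the control eye (open points) and the IOP‐treated eye (filled points) of each mouse, joined by a line. Blue marks mice 3, 4 and 6 without GCV and orange mice 1, 2 and 5 with GCV; Bcl3 goes from under 1 FPKM to between 10.2 and 59.9, and Tnfaip3 is the gene whose 6 lines all go down.

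Bcl3 differed most between the eyes. In the control eyes of mice 3, 4 and 6, Bcl3 was at 0.694, 0.329 and 0.961 FPKM, against 28.2, 15.1 and 59.9 FPKM in their IOP‐treated eyes. In mice 1, 2 and 5, with GCV, it was at 0.397, 0.311 and 0.349 FPKM in the control eyes and at 10.2, 15.1 and 39.8 FPKM in the IOP‐treated eyes. Every IOP‐treated eye was above every control eye, and within a mouse the IOP‐treated eye had 25.8 to 114 times the level of the control eye. The ratio of group means was 52 without GCV and 61.6 with GCV. On the log2(FPKM + 1) scale, which understates changes of genes near 0, the difference was 4.22 (SE 0.51) without GCV, the rank 11 from the highest of 18509 genes, and 3.85 (SE 0.51) with GCV, the rank 17. The control values rest on an estimated 4 to 14 fragments per library, so the folds are loose, whereas the IOP‐treated values rest on 138 to 581. An annotated transcript, Gm16175, overlaps Bcl3 on the opposite strand, and the sources used here do not state whether fragments were counted by strand.

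Among the subunits, Nfkb2 and Rela were higher in the IOP‐treated eye of all 6 mice, with no overlap between the groups with or without GCV. Nfkb2, the precursor of p52 in the noncanonical branch, was at 0.595, 0.508 and 0.53 FPKM in control eyes and at 2.29, 1.98 and 1.07 FPKM in IOP‐treated eyes of mice 3, 4 and 6. In mice 1, 2 and 5 it went from 0.48, 0.37 and 0.571 FPKM to 2.23, 1.71 and 6.46 FPKM. The ratios of means were 3.27 without GCV and 7.32 with GCV, where mouse 5 had the highest value. Exons of Psd overlap Nfkb2 on the opposite strand, so part of its fragments may belong to Psd if strand was not used.

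Rela, the main activating subunit of the canonical branch, moved within a narrow range. It was at 8.6, 8.63 and 8.11 FPKM in control eyes of mice 3, 4 and 6 and at 13, 12.7 and 15.8 FPKM in their IOP‐treated eyes. With GCV, the control eyes of mice 1, 2 and 5 had 9.02, 8.83 and 8.02 FPKM and the IOP‐treated eyes 11.2, 13.1 and 17.1 FPKM. The ratios of means were 1.64 and 1.6, and its log2 differences of 0.64 and 0.60 (SE 0.15 each) had the smallest error of the 10 genes.

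Relb, the partner of p52, was less even. Without GCV it was at 0.634, 0.541 and 0.734 FPKM in control eyes and at 1.68, 2.31 and 0.614 FPKM in IOP‐treated eyes, so that mouse 6 had the lower value in its IOP‐treated eye. That library is the shallow one, and its Relb value rests on an estimated 5 fragments. With GCV, Relb went from 0.392, 0.96 and 1.08 FPKM to 2.12, 1.07 and 4.27 FPKM, with an overlap between the groups. Relb lies 179 kb from Bcl3 on chr7 (chr7:19606217-19629438, minus strand).

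Rel, the c-Rel subunit of lymphoid cells, was higher in the IOP‐treated eye of 6 of 6 mice, by 0.14 to 0.18 on the log2 scale without GCV and by 0.46 to 1.20 with GCV. Without GCV it was at 0.904, 0.635 and 0.616 FPKM in control eyes and at 1.09, 0.803 and 0.825 FPKM in IOP‐treated eyes, and the groups overlapped. With GCV, 0.274, 0.43 and 0.422 FPKM in control eyes stood against 0.76, 0.961 and 2.26 FPKM, with no overlap. Nfkb1, the p50 precursor, was higher in the IOP‐treated eye of 4 mice, with log2 differences of 0.16 and 0.39 (SE 0.22 each). With 1 library left out these lay between 0.06 (without the IOP‐treated eye of mouse 4) and 0.28 (mouse 6), and between 0.19 (mouse 5) and 0.58 (mouse 2). The ratio of Nfkb2 to Nfkb1 within an eye was 0.129 ± 0.0251 in control and 0.355 ± 0.0989 in IOP‐treated eyes without GCV, and 0.109 ± 0.0327 and 0.508 ± 0.226 with GCV (SD, n = 3 each).

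Nfkbia, which encodes IκBα, was also higher in all 6 IOP‐treated eyes. It was at 16, 17.9 and 13.5 FPKM in control eyes and at 26.3, 24.8 and 41.6 FPKM in IOP‐treated eyes of mice 3, 4 and 6. In mice 1, 2 and 5 it went from 16.7, 14.9 and 16.3 FPKM to 20.9, 20.5 and 59.4 FPKM. Neither pair of groups overlapped, but the IOP‐treated eye of mouse 5 was far above its group. Nfkbie, which encodes IκBε, was at 1.25, 1.3 and 0.908 FPKM in the control and 2.72, 1.66 and 1.7 FPKM in IOP‐treated eyes without GCV, without overlap. With GCV, the 1.58, 1.41 and 1.85 FPKM of control eyes overlapped the 2.48, 1.58 and 6.62 FPKM of IOP‐treated eyes. Nfkbiz, the other nuclear IκB protein, had overlapping groups in both comparisons, with ratios of means of 1.34 and 1.55.

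Tnfaip3 was the only member that was lower in IOP‐treated eyes, and it was so in 6 of 6 mice. Without GCV, its level was 91.1, 85.8 and 87.5 FPKM in control eyes and 45.2, 42 and 36.1 FPKM in IOP‐treated eyes of mice 3, 4 and 6. With GCV, it was 85.9, 74.6 and 85.8 FPKM in control eyes and 57.8, 65.6 and 32.5 FPKM in IOP‐treated eyes of mice 1, 2 and 5. The groups did not overlap, and the control means were 2.14 and 1.58 times those of the IOP‐treated eyes. These values rest on an estimated 611 to 3302 fragments per library, and no annotated exon of another gene overlaps Tnfaip3. Within an eye, Tnfaip3 over Nfkbia was 5.66 ± 0.847 in control and 1.43 ± 0.484 in IOP‐treated eyes without GCV, and 5.14 ± 0.13 and 2.17 ± 1.42 with GCV (SD, n = 3 each).

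**Figure D2:**
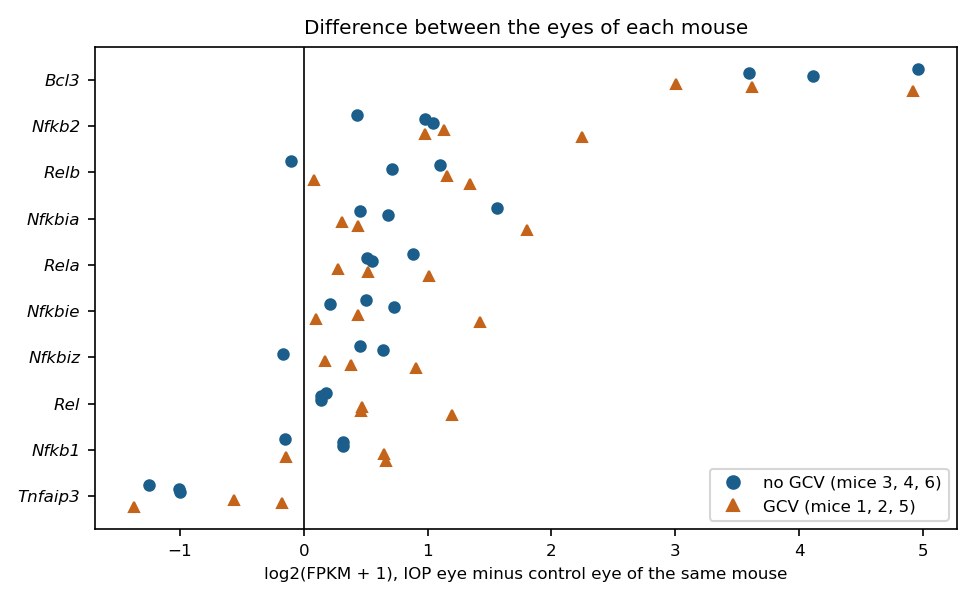
Difference in log2(FPKM + 1) between the IOP‐treated and the control eye of each mouse (horizontal axis) for the 10 genes, ordered by their median, with circles for mice without GCV and triangles for mice with GCV; the vertical offset of points only separates them. Bcl3 lies between 3.01 and 4.96 in every mouse, Tnfaip3 is left of 0 in every mouse, and mouse 5 gives the rightmost triangle of each gene except Tnfaip3.

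Of the family, 9 of the 10 genes had a higher group mean in IOP‐treated eyes in both comparisons. The median log2 difference of the 10 genes was 0.52 without GCV and 0.68 with GCV, against 0.00 over all genes tested in each. For the record, in the fit over all genes 2 of the 10 were past an adjusted p of 0.05 without GCV (1 with the mouse as a block), where 1.65% of all genes were, 1.42% higher and 0.232% lower, and 1 of the 10 with GCV, where 1.8% were, 1.65% higher and 0.157% lower. These counts come from the values on which the genes were chosen and are no test of them. Without overlap, 5 genes were higher and Tnfaip3 was lower in each comparison, against 11.7% higher and 8.81% lower of all genes without GCV and 14.5% and 15.3% with GCV. The IOP‐treated eye was higher in 6 of 6 mice for Nfkb2, Rela, Rel, Bcl3, Nfkbia and Nfkbie, as for 10.7% of all genes, and lower in 6 of 6 for Tnfaip3, as for 10.1%. These counts too are a description.

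The mice were not alike in size. The median over the 10 genes of the difference between the eyes was 0.41 to 0.61 on the log2 scale in mice 1, 2, 3, 4 and 6, and 1.27 in mouse 5, with GCV. In size, mouse 5 had the largest difference of the 6 mice for 9 of the 10 genes, all but Bcl3. Without the IOP‐treated eye of mouse 5, the median over the 10 genes with GCV was 0.40, and the log2 differences were 0.36 for Nfkbia, 0.20 for Nfkbie, 0.51 for Relb, 0.26 for Nfkbiz and 0.44 for Rel, against 0.85, 0.65, 0.86, 0.49 and 0.71 with all libraries. In every mouse Bcl3 was the highest and Tnfaip3 the lowest of the 10.

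Whether GCV went with a different level or response was tested next, in comparisons between different mice that did not enter the choice of the genes. No member passed in control eyes, in IOP‐treated eyes or in the interaction, which asks whether the difference between the eyes differs with GCV. No gene at all passed in these comparisons (0% of 18509 each, limma with Benjamini-Hochberg adjustment), while 295, 774 and 358 genes, none of them a member, had an unadjusted p under 0.05. The intervals are wide. For Bcl3, GCV minus no GCV in IOP‐treated eyes was -0.65 on the log2 scale (95% interval -1.79 to 0.48, adjusted p = 0.819, and -1.19 without the IOP‐treated eye of mouse 5 and -0.16 without that of mouse 6), and the interaction was -0.37 (-1.98 to 1.23, adjusted p = 0.997), which leaves room for a sizeable change either way. For Tnfaip3, the interaction was 0.38 (-0.29 to 1.05, adjusted p = 0.997) and GCV in IOP‐treated eyes 0.28 (-0.19 to 0.75, adjusted p = 0.819). These became 0.19 and 0.08 without the IOP‐treated eye of mouse 2, and 0.68 and 0.58 without that of mouse 5. Rela had the narrowest intervals, with an interaction of -0.04 (-0.50 to 0.42, adjusted p = 1).

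The smallest unadjusted p of a member in the interaction was that of Rel, 0.0769 in limma (adjusted p = 0.997), with a difference of 0.56 (-0.07 to 1.18), which became 0.29 without the IOP‐treated eye of mouse 5. In IOP‐treated eyes it was that of Nfkb2, with a GCV difference of 0.56 (-0.16 to 1.28, adjusted p = 0.819), which became 0.12 without the IOP‐treated eye of mouse 5 and 0.85 without that of mouse 2. In control eyes it was again Rel, with a GCV difference of -0.32 on the log2 scale (-0.76 to 0.12, limma adjusted p = 1), where the 3 GCV values were below the 3 others, as for 5.14% of all genes, and the 3 Nfkbie values with GCV were above, as for 6.01%. Rel rests there on an estimated 15 to 24 fragments with GCV and 39 to 51 without.

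**Figure D3:**
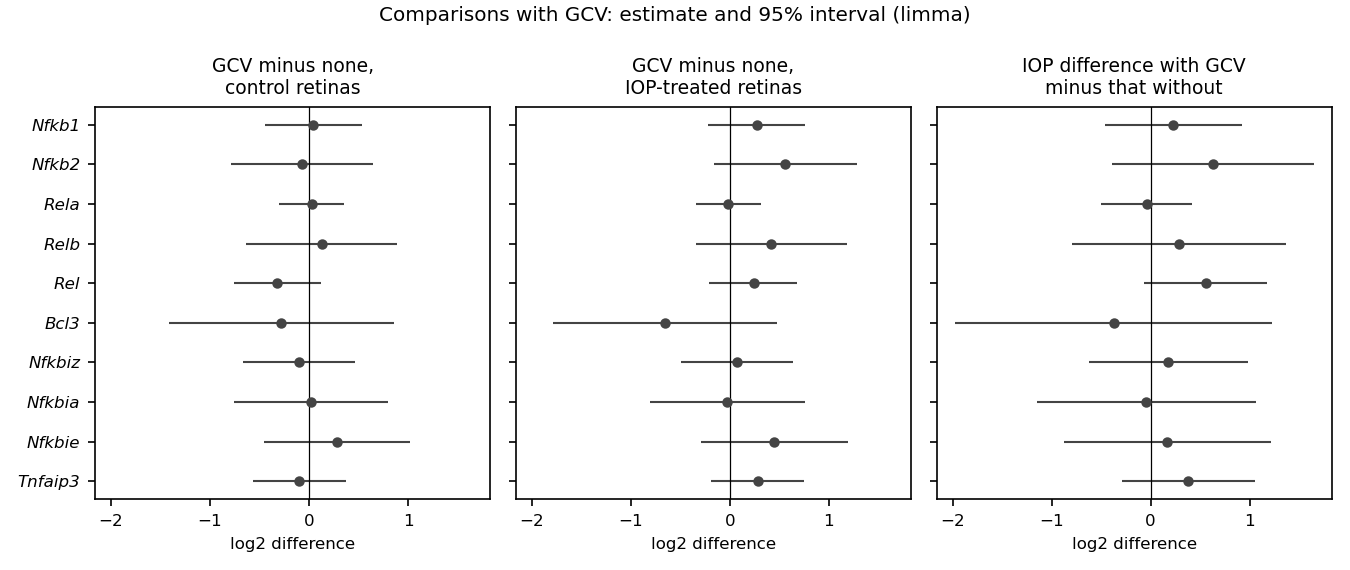
Estimates (points) and 95% intervals (bars) from limma on the log2(FPKM + 1) scale for GCV against no GCV in control eyes (left), in IOP‐treated eyes (centre) and for the interaction (right), each over 3 libraries per group. Every interval of the 10 genes includes 0, and those of Bcl3 are the widest.

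Other genes of the pathway were described from lists of ligands, receptors and adaptors, kinases, other inhibitors and targets, with 95 genes listed and 93 tested. Without GCV, 5 of the 93 (5.38%) rose in IOP‐treated eyes and none fell, against 1.42% of all genes called higher. Of the 93, 77 had a positive difference, against 48.7% of all genes, and the median log2 difference was 0.29. With GCV, 10 (10.8%) rose and none fell, against 1.65% of all genes called higher, with 82 positive differences (50.7% of all genes) and a median of 0.40. All of these calls were in receptors and adaptors or in targets.

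Of the 9 ligands tested, none passed, and the most abundant in control eyes, the cytokine Tnfsf12 (TWEAK), had 188 ± 17 FPKM in the control eyes and 581 ± 683 FPKM in the IOP‐treated eyes without GCV (SD, n = 3), and without the IOP‐treated eye of mouse 6 its log2 difference went from 0.93 to -0.03. Tnf and Il1b, named outside the rule after their values were seen as the classical ligands of the pathway, did not pass in the fit reported. Tnf was listed at 0 in all 6 control eyes and was at 0.173 to 0.556 FPKM in IOP‐treated eyes without GCV and at 0 to 9.67 FPKM with GCV, where its log2 difference of 1.39 became 0.38 without the IOP‐treated eye of mouse 5. Il1b, higher in the IOP‐treated eye of 6 of 6 mice, was at 0.136 ± 0.15 and 4.76 ± 2.39 FPKM without GCV, and at 0.398 ± 0.262 and 16.1 ± 21 FPKM with GCV (limma adjusted p = 0.17 and 0.0771). Il1b passed with a pseudocount of 0.1 in both comparisons (limma adjusted p = 0.0334 and 0.0343), with only the groups compared without GCV (0.043), and with GCV under the filter on low values (0.0486) or without the IOP‐treated eye of mouse 2 (log2 difference 3.51, adjusted p = 0.0246). Its log2 difference with GCV was 2.85 over all libraries and 1.82 without the IOP‐treated eye of mouse 5.

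Among 29 receptors and adaptors, Tnfrsf1a, the main receptor of TNF, rose in both comparisons, from 4.92 ± 1.54 to 12.7 ± 2.94 FPKM without GCV (log2 difference 1.22, SE 0.23, limma adjusted p = 0.0325) and from 3.99 ± 0.186 to 16.9 ± 4.75 FPKM with GCV (1.81, SE 0.23, adjusted p = 0.0059). Myd88, the adaptor of interleukin-1 and Toll-like receptors, rose with GCV, from 3.95 ± 0.494 to 13.7 ± 6.81 FPKM (limma adjusted p = 0.0378). Without GCV, Myd88 was at 4.54 ± 1.04 and 8.56 ± 2.49 FPKM (adjusted p = 0.226). The most abundant of this list, Sharpin of the linear ubiquitin chain complex, was at 29 ± 1.05 and 25.1 ± 7.13 FPKM. None of the 12 kinases and none of the 16 other inhibitors passed. Tab2 was the most abundant kinase-complex gene (26.3 ± 1.54 and 38.2 ± 17.6 FPKM) and Commd1 the most abundant inhibitor (174 ± 21.5 and 194 ± 35.9 FPKM). For Tab2 without GCV, leaving out the IOP‐treated eye of mouse 6 took the log2 difference from 0.44 to 0.09.

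Of the 27 target genes tested, 4 rose without GCV (Gadd45b, Ccl2, Ccl5 and Lcn2) and 8 with GCV (the same 4, Irf1, Cfb, C3 and Saa3). Gadd45b, a stress-response gene, rose from 4.28 ± 1.01 to 37.7 ± 5.74 FPKM without GCV (limma adjusted p = 0.0046) and from 3.94 ± 1.32 to 32.3 ± 14.1 FPKM with GCV (adjusted p = 0.00368). Ccl2, a chemokine for monocytes, rose from 0.127 ± 0.111 to 9.56 ± 2.84 FPKM and from 0.22 ± 0.228 to 9.35 ± 8.55 FPKM (limma adjusted p = 0.0116 and 0.0146). Ccl5, a chemokine for T cells, rose from 0.329 ± 0.316 to 9.52 ± 4.79 FPKM and from 0.119 ± 0.207 to 21.9 ± 14.8 FPKM (limma adjusted p = 0.0417 and 0.0107). Bcl2l1, which encodes the survival protein Bcl-xL and was the most abundant target, was at 39.8 ± 2.04 and 34.8 ± 3.93 FPKM without GCV and did not pass. In the interaction and in both GCV comparisons none of the 93 genes passed (limma; 1, 3 and 0 genes had an unadjusted p under 0.05 in the interaction, in IOP‐treated eyes and in control eyes).

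Gadd45b in both comparisons and Tnfrsf1a with GCV passed in every alternative run. With the mouse as a block, Tnfrsf1a without GCV (limma adjusted p = 0.131), Myd88 with GCV (0.107) and Ccl5 without (0.139) and with GCV (0.0598) no longer passed, and 2 and 6 pathway genes were called in place of 5 and 10. Fitting only the groups compared, Tnfrsf1a without GCV (limma adjusted p = 0.0853) and Myd88 (0.0797), Ccl5 (0.0634) and Ccl2 (0.0754) with GCV did not pass either, with 10 and 3 pathway genes called. Without GCV, leaving out the control eye of mouse 3 or 4 gave log2 differences of 1.14 and 1.09 for Tnfrsf1a and 3.24 and 3.11 for Ccl2, none of which passed, and Tnfrsf1a (1.06) did not pass without the IOP‐treated eye of mouse 3 either. Ccl5 passed only without the IOP‐treated eye of mouse 4 (2.57), with 2.94, 2.72 and 3.08 without the control eye of mouse 3, 4 and 6 and 2.93 and 3.23 without the IOP‐treated eye of mouse 3 and 6. With GCV, leaving out the control eye of mouse 1, 2 or 5 gave 2.66, 2.80 and 2.93 for Ccl2 and 1.41, 1.55 and 1.50 for Myd88, none of which passed. Myd88 (1.13) did not pass without the IOP‐treated eye of mouse 5, nor Ccl5 (3.94 each) without the control eye of mouse 1 or 5. Lcn2 was lost without GCV under the block (limma adjusted p = 0.0655) and passed in 2 of 6 fits that each left out 1 library, with log2 differences of 3.14 to 3.72. With GCV, the block lost Irf1 (0.0924) and C3 (0.0584), and fitting only the groups compared lost Lcn2 (0.0691), Irf1 (0.0698), Cfb (0.0759), C3 (0.0835) and Saa3 (0.0972). Of the 6 fits with GCV that each left out 1 library, Lcn2 passed in 4 (3.13 to 4.54), Cfb in 3 (2.97 to 4.44), Saa3 in 2 (5.07 to 8.74), and Irf1 (1.66 to 2.38) and C3 (2.72 to 4.16) in 1 each. Their lowest values came without the IOP‐treated eye of mouse 5 and their highest without that of mouse 2, and Saa3 spanned 24.9 to 4173 FPKM in IOP‐GCV eyes. The number of pathway genes called ranged from 1 (without the control eye of mouse 3) to 13 (without the IOP‐treated eye of mouse 4) without GCV, and from 2 (without the control eye of mouse 1) to 23 (without the IOP‐treated eye of mouse 2) with GCV.

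**Figure D4:**
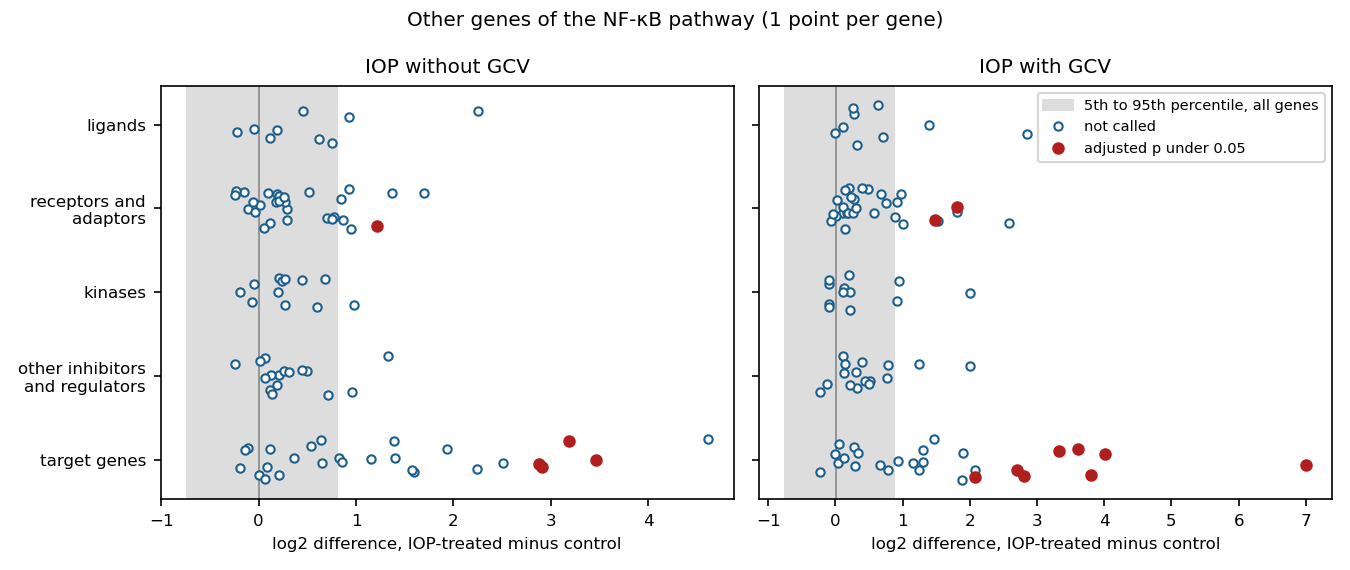
Log2(FPKM + 1) difference between IOP‐treated and control eyes (horizontal axis) of the other pathway genes by list, 1 point per gene, without GCV (left) and with GCV (right), with red points for an adjusted p under 0.05. The grey band spans the 5th to 95th percentile of all genes tested (-0.74 to 0.80 and -0.75 to 0.87), and the red points are in receptors and adaptors and in target genes.

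The genes whose 6 differences between the eyes lay nearest to those of Bcl3, by the largest deviation over the 6 mice among 13623 genes that reached a group mean of 1 FPKM, were Fxyd5 (1.01), Srgn (1.01), Cd68 (1.09), Lilrb4a (1.10) and Bcl2a1b (1.10) on the log2 scale. With a pseudocount of 0.1 in place of 1, Lilrb4a was the only one of these 5 still among the nearest. Bcl2a1b has close copies in the genome, so its counts are uncertain.

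Summed markers of several cell types also differed between the eyes. The retina is bulk tissue, so more cells of a type and more RNA per cell cannot be told apart. The summed level of 10 microglia markers was 51.9 to 72.2 FPKM in the control and 170 to 233 FPKM in the IOP‐treated eyes without GCV, and 57.7 to 62.5 and 140 to 327 FPKM with GCV. The sum of 10 measured leukocyte markers was 9.65 to 47.6 and 326 to 744 FPKM, and 11.9 to 37 and 176 to 2512 FPKM with GCV, where mouse 5 held the highest value. This sum was mostly Lyz2, with means of 19.2 and 503 FPKM without GCV and of 11.4 and 887 FPKM with GCV. In each comparison, 9 of the 10 had a positive difference, some of them at levels near 0. Of these markers, Ly6c2 and Cd3e were at 0 in all 3 control‐GCV libraries. The reactive glia markers (5 genes) were at 62.8 to 181 and 417 to 470 FPKM without GCV and at 63.2 to 99.7 and 411 to 866 FPKM with GCV. Their part in the Bcl3, Nfkb2, Rela and Nfkbia differences was not tested.

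Tnfaip3 was lower in IOP‐treated eyes, as were the summed markers of retinal ganglion cells and Mueller glia in 6 of 6 mice and those of rods in most mice. The ganglion cell sum (7 genes) of the IOP‐treated eye was 0.242 to 0.968 times that of the control eye of the same mouse, with all 7 genes lower in both comparisons (median log2 differences -1.12 and -1.44, 0 past the threshold in limma, and 4 and 7 at an unadjusted p under 0.05). The 6 rod markers summed to 43087 to 54636 FPKM in the control and 29432 to 41160 FPKM in the IOP‐treated eyes without GCV, and to 37986 to 47901 and 29703 to 46610 FPKM with GCV. Within a mouse, the rod sum of the IOP‐treated eye was 0.683 to 1.23 times that of the control eye, the Mueller glia sum (7 genes) 0.567 to 0.732 times and Tnfaip3 0.379 to 0.879 times. The rod markers, which mark the labelled tissue, were above 0 in every library. The lists were not uniform. The Mueller glia sum was carried by Glul (means of 846 FPKM in the control and 400 FPKM in the IOP‐treated eyes without GCV), while Vim and Sox9 of that list, and Sag of the rod list, were higher in the IOP‐treated eye of 6 of 6 mice, Vim with a log2 difference of 1.66 with GCV (limma adjusted p = 0.0198).

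Lens markers, from a neighbouring tissue, also differed between the eyes. Their sum was 5.71 to 33.1 FPKM in the control and 89.1 to 4417 FPKM in the IOP‐treated eyes without GCV, and 64.3 to 6393 and 2866 to 5650 FPKM with GCV. Within a mouse the sum of the IOP‐treated eye was 15.6 to 134 times that of the control eye in mice 2 to 6 and 0.884 times in mouse 1, and all 7 genes had positive differences on the log2(FPKM + 1) scale in both comparisons, although the mean FPKM of Mip was lower with IOP elevation in the GCV groups (0 past the threshold in limma, and 5 and 3 at an unadjusted p under 0.05). The part of these cells and of lens tissue in the differences of Tnfaip3, Bcl3 and the other members was not tested.

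**Figure D5:**
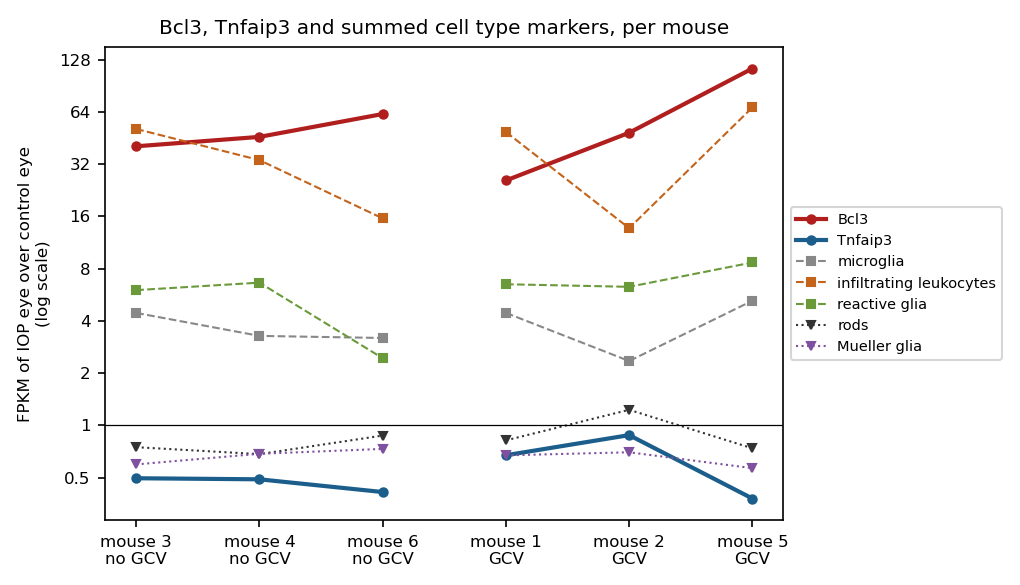
FPKM of the IOP‐treated eye over that of the control eye (vertical axis, log scale, line at 1) of each mouse for Bcl3, Tnfaip3 and the summed markers of 5 cell types, with mice without GCV on the left and with GCV on the right. Bcl3 lies at 25.8 to 114 and the leukocyte sum, which is mostly Lyz2, at 13.7 to 68, while Tnfaip3 and the Mueller glia sum are under 1 in all 6 mice.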

How the data were processed

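RNA-seq libraries from 12 retinas were analysed as deposited, in a table of FPKM values made by the authors. The unit was inferred from the values. Per the labels, TruSeq stranded mRNA libraries were read as paired ends of 50 bases, and the submitters' processing notes name TopHat2, Bowtie2, Cufflinks, Cuffdiff and the build mm10. The study's methods name counts by HOMER on exons of RefSeq genes. Fragments were estimated from the steps of low FPKM values, which were near whole multiples for 81.7% to 89.4% of values, and p-values measure the spread between these libraries only.

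The test was limma (version 3.58.1, run in R 4.3.3) on log2 values of FPKM plus 1, with the means of 4 groups, a variance trend and Benjamini-Hochberg adjustment at 0.05 over 18509 genes. The reported fit had no mouse term, and a fit with the mouse as a block was an alternative, since the eyes of a mouse come from the same animal. Same-mouse deviations from the group means correlated at -0.117, 0.132, 0.207, 0.388, 0.166 and 0.0998 in mice 1 to 6. Pathway genes were named if called with the smallest adjusted p in a list (at most 3) or most abundant in controls. Median-ratio factors were near 0. The members and lists were chosen with earlier results of these data known. Other settings tried were 0.1 as pseudocount, keeping genes that reached 1 FPKM in 3 libraries or more, median-ratio and quantile scaling, a fit of only the groups compared, the mouse block and leaving out each library. The level of 1 leukocyte marker is not reported here by itself.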

Additional observations from a re-analysis of the deposited data

How the results depend on the processing

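Counts of the 10 genes in the IOP comparisons are a description, as the genes were chosen there. Without GCV, a pseudocount of 0.1 gave 464 called genes, 9 pathway genes and a median of 0.72 over the 10 genes (against 306, 5 and 0.52), fitting only the groups compared gave 10 pathway genes, and the mouse as a replicate block gave 75 genes, 1 of the 10 and 2 pathway genes. With GCV, a pseudocount of 0.1 gave 535 genes and 2 of the 10 (against 334 and 1), the filter on low values 2 of the 10 and 16 pathway genes (against 10), only the groups compared 92 genes and 3 pathway genes, and the block 144 genes and 6 pathway genes. For GCV in control eyes, 1 gene passed with a pseudocount of 0.1 and 1 with only the groups compared. The block changed no other call of the 10 genes. The causes were not tested. Quantile normalization moved Nfkbia to 0.00 in the interaction and to 0.00 for GCV in IOP‐treated eyes, across 0.

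Leaving out 1 library at a time gave 23 to 2490 called genes, 1 to 3 of the 10 and 1 to 13 pathway genes without GCV, and 77 to 716, 1 to 3 and 2 to 23 with GCV. It gave 0 to 2 genes in the interaction, 0 to 4 for GCV in IOP‐treated eyes and 0 to 3 in control eyes. Some log2 differences that passed no test changed sign with 1 library left out. The ranges were Tnfsf12 -0.03 to 1.57 and Sharpin -0.41 to 0.00 between the eyes without GCV, and Sharpin -0.13 to 0.07 between the eyes with GCV. In the interaction they were Nfkbia -0.54 to 0.20, Nfkbiz -0.06 to 0.37, Rela -0.20 to 0.09, Relb -0.06 to 0.61, Bcl3 -0.91 to 0.12 and Nfkbie -0.28 to 0.51. For GCV in IOP‐treated eyes they were Nfkbiz -0.17 to 0.26, Rela -0.17 to 0.12, Nfkbia -0.52 to 0.23 and Rel -0.03 to 0.41, and for GCV in control eyes Nfkb1 -0.03 to 0.18, Rela -0.00 to 0.07, Nfkbia -0.08 to 0.11 and Nfkbiz -0.20 to 0.00.

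Genes under about 1 FPKM, such as Bcl3 and Nfkb2 in control eyes, rest on few fragments at 3980000 to 9050000 estimated fragments per library, and each group holds 3 libraries.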
